A study of Homo sapiens with 18 samples.

Results

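Peroxiredoxins and the thioredoxin system were followed in HCT-116, an established human colorectal carcinoma cell line, through 10 genes: the peroxiredoxins PRDX1 to PRDX6, thioredoxin (TXN), thioredoxin reductase 1 (TXNRD1), sulfiredoxin (SRXN1) and the quinone reductase NQO1. The members are the rows of both deposited count tables that carry 1 of these symbols, which gave 10 of 60683 gene rows. All 10 passed the low count filter in both tables. Poly(A) RNA was sequenced from 18 samples in 6 groups of 3. The ACTB table held cells labelled Actin KO, which carry an empty construct according to the series design, and 2 derivatives of such knockout cells. One derivative is labelled Actin WT over-expression (ACTB-WT) and the other Actin mut over-expression (ACTB-mut, the H73A form in the design). All 3 groups of that table thus share the Actin KO genotype. A second table, called the SETD3 table, had control cells (SETD3 CT) and 2 groups labelled SETD3 KO, KO1 and KO2. SETD3 is the methyltransferase that modifies the actin histidine that H73A replaces. Neither the promoter of the constructs, nor whether a group is a single clone, nor whether replicates were separate cultures is given in the labels, so p-values rest on the spread among these samples alone. The cell line label of KO2 replicate 3 reads HCT-117, and the sample was kept in its group.

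Peroxiredoxins are thiol peroxidases that reduce hydrogen peroxide with a reactive cysteine. In the typical members PRDX1 to PRDX4 and in PRDX5 the oxidised cysteine forms a disulfide. In PRDX1, PRDX2, PRDX3 and PRDX5 a thioredoxin reduces it and is recharged by a thioredoxin reductase with NADPH. Sulfiredoxin repairs typical peroxiredoxins whose cysteine has been over-oxidised, and NQO1 reduces quinones. TXNRD1, SRXN1, NQO1, PRDX1 and TXN are textbook targets of NRF2, the transcription factor that KEAP1 holds low until oxidants or electrophiles modify it.

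Library totals ran from 5144386 to 11271910 counts in the ACTB table and from 3389586 to 11652967 in the SETD3 table, with KO2 replicate 1 the shallowest. Levels are CPM, counts per 1e6 counts of the library with edgeR's TMM scaling, and are given as mean ± SD over 3 libraries. RNA of the targeted genes did not mark the groups cleanly. ACTB lay at 15.0 to 24.9 CPM in Actin KO, 23.2 to 31.0 in ACTB-WT and 32.04 to 47.1 in ACTB-mut. The ranges of the first 2 groups overlapped, and every ACTB-mut library lay above both. In the separately deposited SETD3 table, ACTB lay at 662 to 1456 CPM. SETD3 lay at 14.0 to 36.0 CPM in SETD3 CT, 6.34 to 17.1 in KO1 and 15.6 to 27.7 in KO2, with overlap between all 3. RNA cannot show whether protein was lost, and the groups are named here as labelled. The 6 epithelial markers were all detected, with a summed level of 7997 to 13480 CPM across the 18 libraries. Fibroblast, blood and liver markers summed to at most 15.3, 1.59 and 9.01 CPM.

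PRDX2, a cytosolic peroxiredoxin, was the most abundant member per length of transcript. Divided by the mean transcript length in GENCODE 29, its level in Actin KO was 654 CPM per kb. PRDX5 (314), PRDX4 (278) and TXN (266 CPM per kb) followed, and libraries of neighbouring genes in this order overlapped. NQO1 (126), TXNRD1 (114) and PRDX1 (94.7) came next, with libraries of neighbouring genes overlapping. PRDX6 was at 73.9 CPM per kb, and SRXN1 (31.8) and the mitochondrial PRDX3 (30.5) were lowest and overlapped each other. In SETD3 CT the order was similar at both ends, with PRDX2 at 706 CPM per kb and SRXN1 (27.1) and PRDX3 (28.1) lowest. TXNRD1 stood at 49.0 CPM per kb there. The tables were deposited as separate sets, and levels are compared only within a table.

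**Figure D1:**
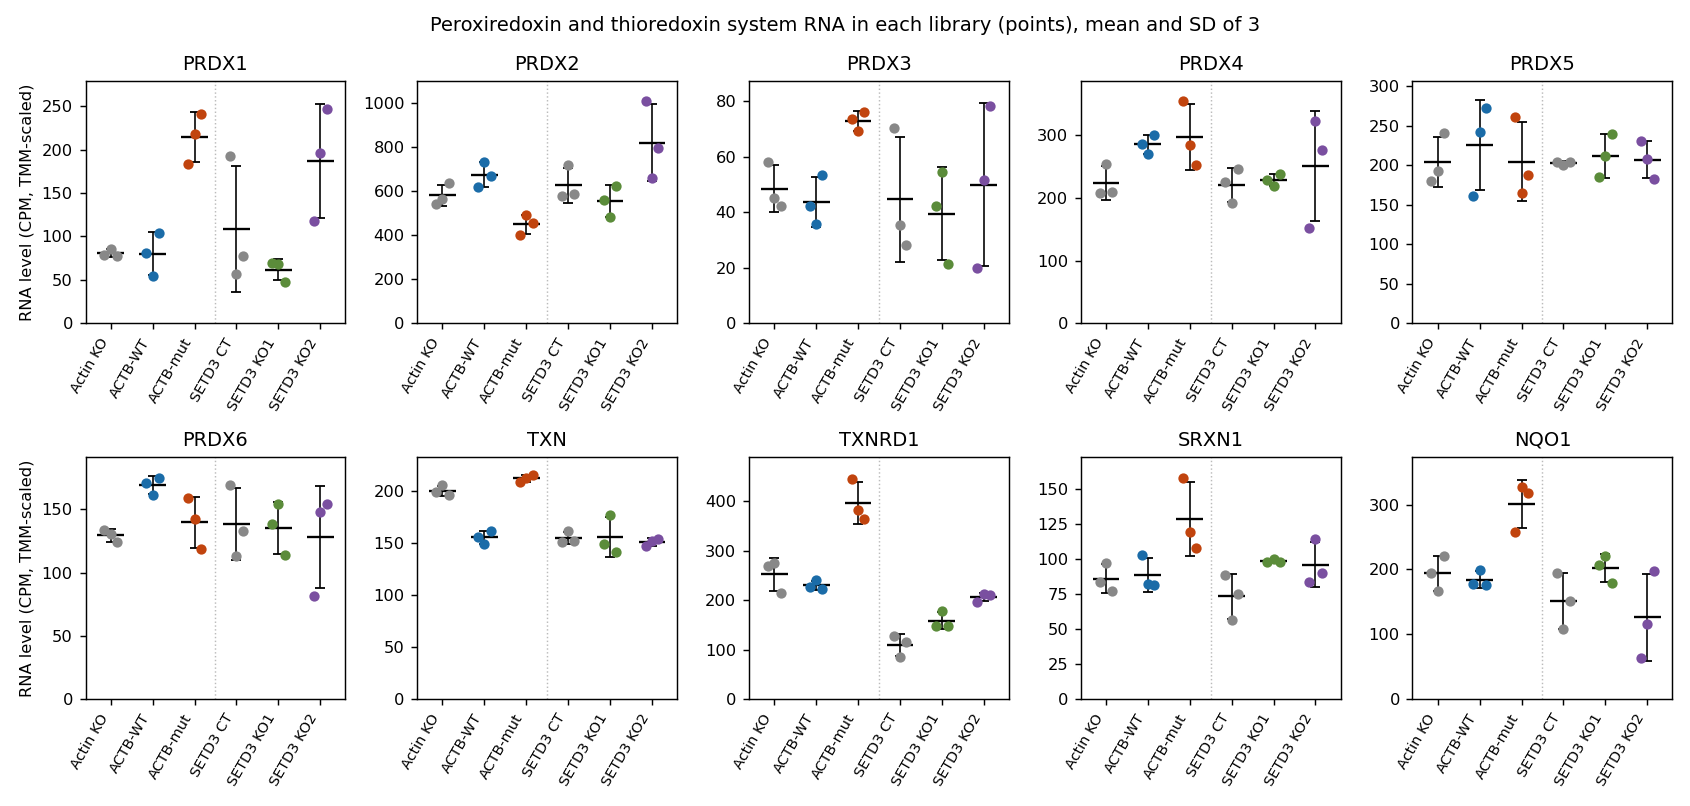
RNA level of each of the 10 genes (CPM, TMM-scaled, y axis from 0) in the 6 groups (x axis). Points are the 3 libraries of a group, the horizontal line is their mean and the error bar their SD. The ACTB-mut libraries of PRDX1 (184 to 241.5 CPM), TXNRD1 and NQO1 lie above the other groups of the ACTB table to the left of the dotted line, while those of PRDX2 lie below.

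The comparison of ACTB-mut with ACTB-WT asks what the histidine mutation changed when both constructs sit in knockout cells. ACTB RNA was also higher in every ACTB-mut library than in ACTB-WT. So was SETD3 RNA, at 29.9 to 33.0 CPM in ACTB-mut, 9.74 to 27.7 in ACTB-WT and 13.5 to 18.3 in Actin KO. Mutation, ACTB level and SETD3 level cannot be told apart here. PRDX1, TXNRD1 and NQO1 rose in ACTB-mut and PRDX2 fell. A gene is called changed at an adjusted p below 0.05 in edgeR's quasi-likelihood test, with Benjamini-Hochberg adjustment over all genes tested. That makes 4 of the 10 members, against 1.24% of the 13882 genes tested. In the upward direction 3 of 10 were called, against 0.634% of all genes. Because members were chosen with earlier results of these data known, these shares do not test the set. The members' median log2 fold change was 0.49, and the median over all genes was 0.025. Against Actin KO the same 3 genes were called higher in ACTB-mut by edgeR and none lower, where 0.922% of all genes were called in either direction and 0.324% were called higher. The members' median was 0.49 there too, beside 0.030 over all genes. The DESeq2 Wald test called 5 members in each comparison, adding TXN (higher) against ACTB-WT and SRXN1 (higher) and PRDX2 (lower) against Actin KO, while limma-voom called 4 and 3. Both comparisons use the same ACTB-mut libraries, so they are not independent of each other. In bulk RNA, fewer cells that express a gene and less RNA per cell cannot be told apart.

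PRDX1, a cytosolic peroxidase, had the largest difference among the members. Its level was 79.2, 85.6 and 77.5 CPM in the Actin KO libraries. It was 81.1, 54.4 and 103.9 CPM in ACTB-WT and 184, 218 and 241.5 CPM in ACTB-mut. Every ACTB-mut library thus exceeded all 6 others of the table. The mean was 214.5 ± 28.9 CPM in ACTB-mut, 80.8 ± 4.26 in Actin KO and 79.8 ± 24.7 in ACTB-WT. The log2 fold change against Actin KO was 1.41 (SE 0.20, edgeR adjusted p = 0.00333), a 2.66-fold difference with a 95% interval of 1.98 to 3.57. Against ACTB-WT it was 1.43 (SE 0.20, edgeR adjusted p = 0.00282). The gene was called in all 10 alternative settings and in all 6 fits that left out a library, in either comparison. PRDX1 was already known from earlier results of these data to be higher in ACTB-mut.

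The PRDX1 row (ENSG00000117450, chr1:45511036-45523047, minus strand, GRCh38 with GENCODE 29) shares sequence with a neighbouring gene. Transcripts of MMACHC, a cobalamin-processing enzyme, match PRDX1 transcripts at 100% identity over 381 bases in GENCODE 29, in a search of both strands. Reads there can be assigned to either gene if the counting ignored strand, a setting not given in the sources used here. MMACHC was at 21.4, 24.3 and 23.9 CPM (Actin KO), 31.2, 27.0 and 38.7 (ACTB-WT) and 16.4, 21.9 and 30.3 (ACTB-mut). Its libraries overlapped between ACTB-mut and both other groups. With all rows that share sequence added to PRDX1, the log2 fold change was 1.19 against Actin KO (edgeR adjusted p = 0.00616) and 1.08 against ACTB-WT (edgeR adjusted p = 0.00998).

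PRDX2 (chr19:12796820-12801859, minus strand), also a cytosolic peroxidase, went the opposite way. Its level was 540, 563 and 634 CPM (Actin KO), 618, 731 and 668 (ACTB-WT) and 402, 489 and 453 (ACTB-mut). The ACTB-mut libraries were the lowest 3 of the table. Against ACTB-WT the log2 fold change was -0.585 (SE 0.12, edgeR adjusted p = 0.0209), from 672 ± 56.7 to 448 ± 44.1 CPM. The call was lost in 4 of 6 fits that left out a library (without ACTB-WT replicate 2 or 3, or ACTB-mut replicate 1 or 3), with an adjusted p of up to 0.119. Against Actin KO the value was -0.37 (edgeR adjusted p = 0.191), not past the threshold in edgeR, though the groups did not overlap, and the DESeq2 Wald test called it (adjusted p = 0.0298).

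The remaining typical peroxiredoxins were not called. PRDX3, the mitochondrial member, was at 58.2, 45.1 and 42.2 CPM (Actin KO), 42.1, 35.7 and 53.3 (ACTB-WT) and 73.6, 69.1 and 76.2 (ACTB-mut). All 3 ACTB-mut libraries were above the rest, yet the log2 fold change of 0.74 against ACTB-WT (SE 0.21) had an edgeR adjusted p of 0.122. Against Actin KO it was 0.59 (edgeR adjusted p = 0.260). PRDX4, which works in the endoplasmic reticulum, averaged 224 ± 26.7 CPM (Actin KO), 286 ± 14.8 (ACTB-WT) and 297 ± 52.5 (ACTB-mut). Its log2 value was 0.06 between the 2 constructs (95% interval -0.24 to 0.36).

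PRDX5 and PRDX6 differ in mechanism from the other 4. PRDX5, an atypical member that closes its disulfide within 1 chain, averaged 205 ± 31.9, 226 ± 57.4 and 205 ± 50.2 CPM (Actin KO, ACTB-WT, ACTB-mut). PRDX6, the 1-cysteine member that relies on glutathione rather than thioredoxin, averaged 129 ± 5.08, 169 ± 7.16 and 140 ± 20.3 CPM. For PRDX6 all 3 ACTB-WT libraries lay above those of either other group, and no comparison passed the threshold. Its log2 value for ACTB-mut against ACTB-WT was -0.27 (edgeR adjusted p = 0.469). For PRDX5 the groups overlapped in every comparison.

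**Figure D2:**
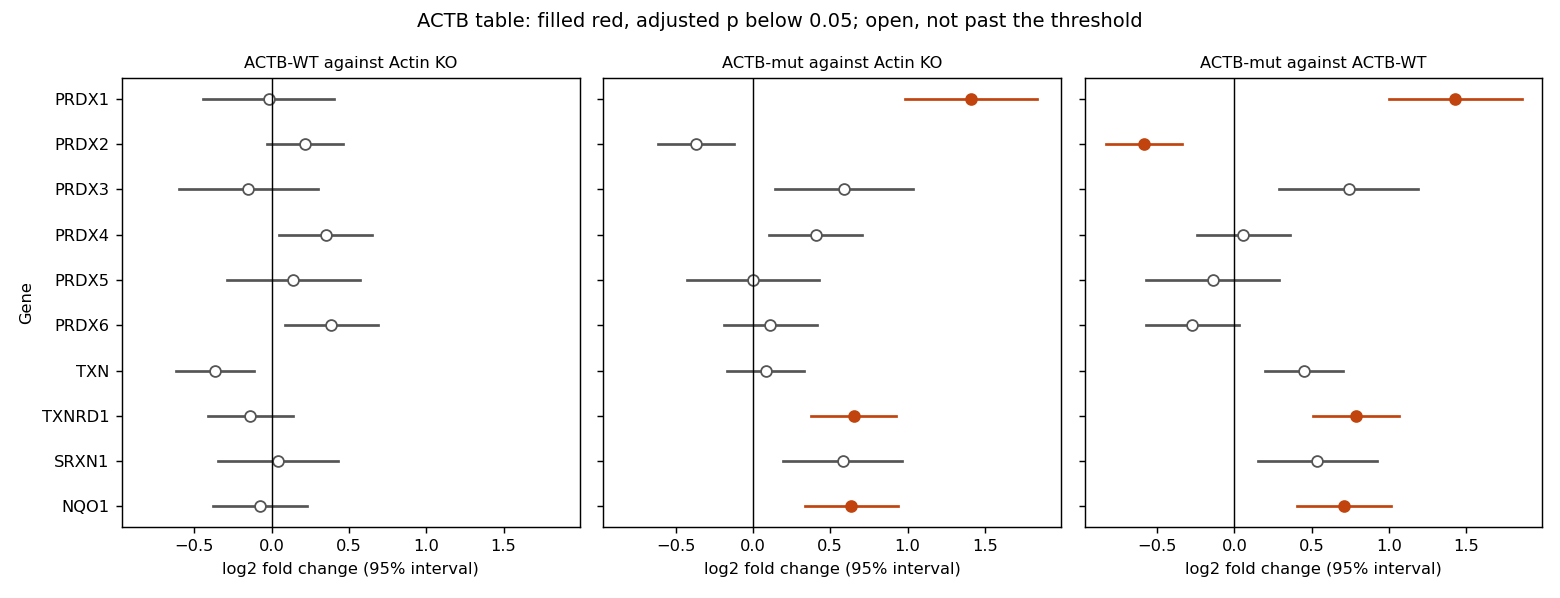
Log2 fold change (x axis) of the 10 genes (y axis) in the 3 comparisons of the ACTB table, with 95% intervals from the edgeR fit as bars. Filled red points passed an adjusted p of 0.05 and open points did not. No gene is filled for ACTB-WT against Actin KO, 3 are filled for ACTB-mut against Actin KO and 4 for ACTB-mut against ACTB-WT.

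TXNRD1 (chr12:104215779-104350305, plus strand), the selenoenzyme that passes electrons from NADPH to thioredoxin, was higher in ACTB-mut. Its level was 269, 275 and 214 CPM (Actin KO), 226, 240 and 223 (ACTB-WT) and 444, 382 and 363.5 (ACTB-mut). The ACTB-mut libraries were the 3 highest of the table. Against ACTB-WT the log2 fold change was 0.79 (SE 0.13, edgeR adjusted p = 0.00780), a 1.73-fold difference with a 95% interval of 1.42 to 2.09, and this call held in all alternatives run. Against Actin KO it was 0.65 (SE 0.13, edgeR adjusted p = 0.0237). That call was lost with only the 2 compared groups in the fit (adjusted p = 0.0681) and in 5 of 6 leave-out fits (the exception was the fit without ACTB-mut replicate 3), with an adjusted p of up to 0.157.

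NQO1 (chr16:69706996-69726951, minus strand), the quinone reductase, showed the same order of groups. It was at 194, 167 and 221 CPM (Actin KO), 177, 199.7 and 176 (ACTB-WT) and 258, 328 and 317 (ACTB-mut). The lowest ACTB-mut library was above the highest of the other 6. The log2 fold change was 0.71 against ACTB-WT (SE 0.14, edgeR adjusted p = 0.0215) and 0.63 against Actin KO (SE 0.14, edgeR adjusted p = 0.0477). Both calls lay near the threshold. With GC and length offsets the values were 0.55 and 0.51 and the calls were lost (adjusted p = 0.119 and 0.172), as they were in 5 of 6 fits that left out a library against ACTB-WT (all but the one without ACTB-mut replicate 1) and in all 6 against Actin KO, with adjusted p-values of up to 0.0959 and 0.209. The call against Actin KO was also lost with DESeq2 size factors (adjusted p = 0.0502) and with the compared groups alone (adjusted p = 0.0875).

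The start regions of TXNRD1 and NQO1, the reductases that rose, are shown because NRF2 acts through a short element in such regions. RefSeq's table for GRCh38.p14 had an entry for 8 of the 10 members. The letters TGACNNNGC, the core of the antioxidant response element, were searched on both strands in the 250 bases before each start. They were present in 1 of 8 members, TXNRD1, and in 3830 of 35116 windows of all genes (10.9%). The first count is of genes and the second of windows, and a gene can have more than 1 window. The 2 shares are thus not like for like. TXNRD1 has entries for 2 starts and each window held a match. The first base of the match lay 99 bases before the start at chr12:104215529-104215778 (plus strand), where it reads TGACTTCGC. It lay 102 bases before the start at chr12:104286782-104287031, where the match is on the opposite strand and is printed as GCTTTGTCA. No match says only that these letters are not in the window, as for NQO1 at chr16:69726561-69726810 (minus strand). Sequences run 5′ to 3′ on the gene's strand, and capitals mark the match.
TXNRD1, upstream start: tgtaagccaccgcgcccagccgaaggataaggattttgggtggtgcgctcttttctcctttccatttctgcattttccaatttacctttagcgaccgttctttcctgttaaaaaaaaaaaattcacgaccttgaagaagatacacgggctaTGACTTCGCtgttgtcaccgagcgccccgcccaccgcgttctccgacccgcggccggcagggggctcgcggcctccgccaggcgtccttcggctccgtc
TXNRD1, downstream start: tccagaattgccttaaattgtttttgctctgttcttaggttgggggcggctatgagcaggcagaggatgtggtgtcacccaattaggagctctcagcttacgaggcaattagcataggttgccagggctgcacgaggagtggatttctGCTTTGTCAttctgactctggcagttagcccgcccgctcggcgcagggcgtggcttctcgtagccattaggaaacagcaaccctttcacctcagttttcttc
NQO1: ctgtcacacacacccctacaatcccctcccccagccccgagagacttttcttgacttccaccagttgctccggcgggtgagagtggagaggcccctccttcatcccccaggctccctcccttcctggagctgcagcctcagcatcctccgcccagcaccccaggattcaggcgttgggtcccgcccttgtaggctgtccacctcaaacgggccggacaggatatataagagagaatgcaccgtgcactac

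SRXN1, the sulfiredoxin that restores over-oxidised peroxiredoxins, was not called by edgeR in either comparison. It was at 83.4, 97.1 and 76.9 CPM (Actin KO), 103, 81.8 and 81.0 (ACTB-WT) and 158, 119 and 107 (ACTB-mut). The ACTB-mut libraries were again the 3 highest. The log2 fold change was 0.58 against Actin KO (SE 0.18, edgeR adjusted p = 0.191) and 0.54 against ACTB-WT (SE 0.18, edgeR adjusted p = 0.212). The DESeq2 Wald test called the first of these (adjusted p = 0.0494) and not the second (adjusted p = 0.155). A second annotated gene, AL121758.1, matches SRXN1 transcripts over 2294 bases and held at most 104 counts in a library.

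TXN (chr9:110243811-110256640, minus strand), the thioredoxin that carries electrons to the peroxiredoxins, varied little within groups. It was at 199, 205.5 and 196 CPM (Actin KO), 155, 149 and 161 (ACTB-WT) and 208, 212 and 215 (ACTB-mut). Here ACTB-WT was the group apart, with its 3 libraries below the other 6. The log2 fold change was 0.45 for ACTB-mut against ACTB-WT (SE 0.12, edgeR adjusted p = 0.0863) and -0.37 for ACTB-WT against Actin KO (SE 0.12, edgeR adjusted p = 0.198). Neither passed the threshold in edgeR, and the DESeq2 Wald test called the first (adjusted p = 0.0262). With GC and length offsets the first value became 0.04 (adjusted p = 0.964), while the second stayed at -0.36.

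ACTB-WT against Actin KO asks what returning wild-type actin to the knockout cells changed. None of the 10 members was called in edgeR, where 1.12% of all genes were. At an unadjusted p below 0.05 there were 3 members, where 11.2% of all genes were, and the DESeq2 Wald test and limma-voom called 0 members each. The 3 were TXN, lower in every ACTB-WT library, and PRDX4 and PRDX6, higher in every ACTB-WT library. PRDX4 had a log2 fold change of 0.35 (edgeR adjusted p = 0.344) and PRDX6 of 0.38 (edgeR adjusted p = 0.276). The members' median was 0.01, close to the median of -0.008 over all genes. PRDX1 was level between the groups at -0.02, although its 95% interval of -0.44 to 0.41 leaves room for a moderate difference either way.

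Other measures of the libraries moved with ACTB-mut. Mitochondrially encoded transcripts held 0.910% to 1.615% of counts in ACTB-mut and 0.637% to 0.874% in the other 2 groups, with no overlap. The slope of log2 level over GC content, per 10 percentage points, was -0.167 to -0.060 in ACTB-mut, -0.008 to 0.158 in Actin KO and -0.025 to 0.102 in ACTB-WT. The part of the mitochondrial share in these results was not tested. With offsets that remove trends over GC content and length, PRDX1 stayed at 1.22 against either group (adjusted p = 0.00983 and 0.00803), TXNRD1 at 0.56 and 0.66 (adjusted p = 0.0418 and 0.0144), and PRDX2 at -0.57 against ACTB-WT (adjusted p = 0.0183). PRDX3 came to 0.33 and 0.46 under the same offsets.

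The SETD3 groups ask whether cells without the methyltransferase change in the same genes. No member was called by edgeR in KO1 against SETD3 CT, where 0.0144% of 13846 genes were called, or in KO2 against SETD3 CT, where 0.0578% were. The average of both lines against SETD3 CT (0.0433% of genes called) and KO2 against KO1 (0.0289%) also held 0 members. These tests called few genes of any kind, and the SE of PRDX1's log2 fold change in KO1 was 0.41, beside 0.20 in the ACTB table. At an unadjusted p below 0.05 there was 1 member each in KO1, KO2 and their average, TXNRD1 in all 3, and 2 in KO2 against KO1, PRDX1 and PRDX2. The shares of all genes at that unadjusted p were 5.75%, 4.95%, 5.68% and 4.84% in turn. The DESeq2 Wald test called 0 in KO1 and 1 in each of the other 3 comparisons, and limma-voom called 0 in all 4. The first 3 comparisons share the SETD3 CT libraries.

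TXNRD1 was the member whose libraries ordered the 3 groups without overlap. It was at 127, 84.7 and 115 CPM (SETD3 CT), 147.5, 178 and 148.5 (KO1) and 196, 213 and 209.7 (KO2). The log2 fold change was 0.54 in KO1 (SE 0.20, edgeR adjusted p = 0.814) and 0.92 in KO2 (SE 0.20, edgeR adjusted p = 0.255). For the average of both lines it was 0.73 (95% interval 0.33 to 1.12, edgeR adjusted p = 0.425). The DESeq2 Wald test gave an adjusted p of 0.00873 in KO2 and 0.0275 for the average. The intervals of all 3 values lay above 0, but none passed the threshold over all genes in edgeR.

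PRDX1 spread widely inside the SETD3 groups. It was at 192, 56.3 and 77.3 CPM (SETD3 CT), 69.1, 68.4 and 47.6 (KO1) and 117, 196.5 and 247 (KO2). SETD3 CT replicate 1 thus lay above 1 of the 3 KO2 libraries and below the other 2, and the highest SETD3 CT library was 3.41 times the lowest. The log2 fold change was -0.82 in KO1 (edgeR adjusted p = 0.901) and 0.78 in KO2 (edgeR adjusted p = 1.00). Without SETD3 CT replicate 1 these became -0.11 and 1.49 (adjusted p = 0.991 and 0.296). KO2 lay above KO1 in every library, at a log2 difference of 1.60 (SE 0.41, edgeR adjusted p = 0.571). That last difference passed in the DESeq2 Wald test (adjusted p = 0.0233) and in edgeR without the low count filter (adjusted p = 1.03e-05).

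PRDX2 was at 576, 716 and 584 CPM (SETD3 CT), 557, 482 and 622 (KO1) and 1005, 657 and 794 (KO2). Its KO2 libraries were above those of KO1, with a log2 difference of 0.56 (SE 0.19, edgeR adjusted p = 0.992), and overlapped SETD3 CT. NQO1 was at 195, 108 and 151 CPM (SETD3 CT), 207, 221 and 178.5 (KO1) and 63.7, 116 and 197 (KO2). Its 3 groups overlapped, and the KO2 libraries differed 3.10-fold among themselves. SRXN1 averaged 73.1 ± 16.1, 98.2 ± 1.26 and 95.8 ± 16.3 CPM in control, KO1 and KO2 libraries. All KO1 libraries of SRXN1 were above SETD3 CT, with a log2 value of 0.42 (edgeR adjusted p = 0.949).

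The other members showed no ordered difference between the SETD3 groups. TXN averaged 154 ± 5.66 CPM (SETD3 CT), 156 ± 18.9 (KO1) and 151 ± 3.72 (KO2), and PRDX5 averaged 203 ± 2.39, 212 ± 27.6 and 207 ± 23.6. For the average of both lines the log2 value of TXN was -0.01 (95% interval -0.35 to 0.33) and that of PRDX5 0.04 (-0.30 to 0.39). PRDX4, PRDX6 and PRDX3 also overlapped in all 3 groups, and the KO2 libraries of PRDX3 ran from 19.7 to 78.4 CPM. KO2 replicate 1, the shallowest library, had the lowest value of its group for PRDX1, PRDX3, PRDX4, PRDX6, TXN, TXNRD1, SRXN1 and NQO1 and the highest for PRDX2 and PRDX5. It also had the steepest slope over GC content of the table, 0.416 against -0.245 to 0.307 in the others, and the part of this in the members' values was not tested.

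**Figure D3:**
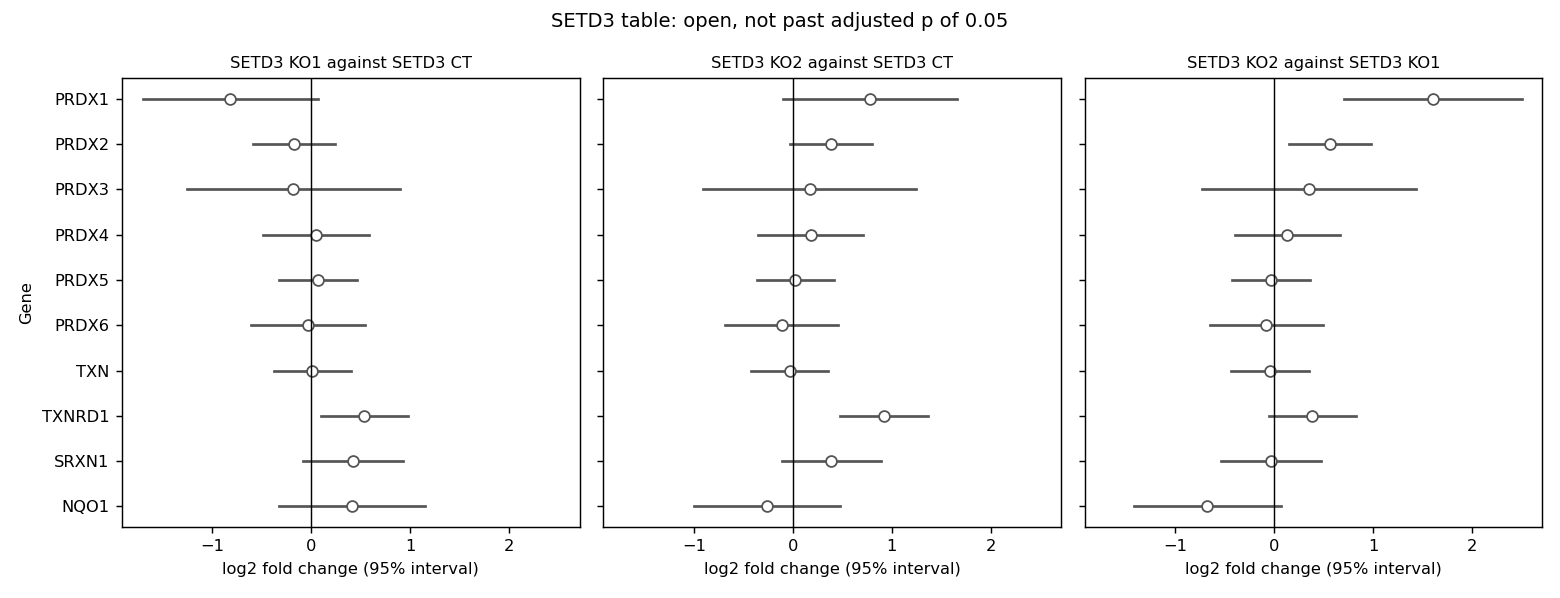
Log2 fold change (x axis) of the 10 genes (y axis) between the SETD3 groups, with 95% intervals from the edgeR fit as bars. All points are open because no gene passed an adjusted p of 0.05. The intervals of TXNRD1 lie above 0 for KO1 (0.09 to 0.98) and KO2 (0.48 to 1.36) against SETD3 CT, and that of PRDX1 is above 0 for KO2 against KO1.

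H73A removes the actin histidine that SETD3 methylates, and the design allows the differences in ACTB-mut and in the SETD3 knockouts to be set against each other. Methylation itself was not measured in these files. The effect of ACTB-mut against ACTB-WT minus the average SETD3 knockout effect was tested in 1 fit of all 18 libraries, in which a shift of level between tables cancels. None of the 10 members was called in edgeR, where 0.315% of 15580 genes were. At an unadjusted p below 0.05 there were 3 members, PRDX1, PRDX2 and TXN, and 9.4% of all genes, and neither the DESeq2 Wald test nor limma-voom called any member. The difference was 1.43 for PRDX1 (95% interval 0.51 to 2.35, edgeR adjusted p = 0.229) and -0.71 for PRDX2 (-1.15 to -0.27, edgeR adjusted p = 0.213). For both genes the knockout average joined values of opposite sign, none of them called. PRDX1 was -0.82 in KO1 and 0.78 in KO2, and PRDX2 was -0.18 in KO1 and 0.39 in KO2. An average near 0 thus does not show that either line left these genes unchanged. Without the low count filter the difference for PRDX1 passed (adjusted p = 0.00175), and without SETD3 CT replicate 1 it was 0.73. For TXNRD1 the difference was 0.04 (-0.42 to 0.50), its effect being 0.79 in 1 table and 0.73 in the other.

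Genes around the system were read from lists of other thioredoxin-fold and partner genes, other NRF2 targets, NRF2 and its regulators, other peroxide and superoxide enzymes, and glutathione enzymes. In ACTB-mut against ACTB-WT, 3 of 20 tested NRF2 targets rose in edgeR and 0 fell, at a list median of 0.29, where 0.634% of all genes were called higher. The DESeq2 Wald test called 3 of the 20 and limma-voom 1. These lists too were chosen with earlier results of these data known. The risers were GCLM, SQSTM1 and CBR3. Of 6 tested peroxide and superoxide enzymes 1 rose, SOD1, at a list median of -0.04. None of 15 thioredoxin-fold genes, 9 genes of NRF2 and its regulators or 9 glutathione genes was called in edgeR, while 4, 1 and 1 had an unadjusted p below 0.05, as did 12% of all genes. For these 3 lists the DESeq2 Wald test called 0, 0 and 1, and limma-voom called 0 in each.

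SQSTM1, the autophagy receptor p62 that also binds KEAP1, was at 828.5, 896 and 804 CPM (Actin KO), 580.4, 631 and 577 (ACTB-WT) and 1056, 911 and 848 (ACTB-mut). The ACTB-WT libraries were below all others. It rose by 0.65 (log2, SE 0.11, edgeR adjusted p = 0.00760) in ACTB-mut against ACTB-WT, a call that held in all alternatives. In ACTB-WT against Actin KO it fell by 0.50 (edgeR adjusted p = 0.0342), a call lost with GC and length offsets (adjusted p = 0.0980) and in all 6 fits that left out a library, with an adjusted p of up to 0.160.

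SOD1, the cytosolic superoxide dismutase that makes hydrogen peroxide from superoxide, followed the same order. It was at 672, 592 and 619 CPM (Actin KO), 346, 383 and 342 (ACTB-WT) and 678, 779.7 and 652 (ACTB-mut). The ACTB-WT libraries were again below all others, and those of Actin KO and ACTB-mut overlapped. It fell by 0.81 in ACTB-WT against Actin KO (log2, SE 0.11, edgeR adjusted p = 9.82e-04) and rose by 0.98 in ACTB-mut against ACTB-WT (SE 0.11, edgeR adjusted p = 4.04e-04). Both calls held in all alternatives, and with GC and length offsets the second value was 0.67.

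CBR3, a carbonyl reductase, was at 24.8, 27.99 and 33.0 CPM (Actin KO), 4.97, 3.09 and 3.14 (ACTB-WT) and 15.7, 14.6 and 15.1 (ACTB-mut). The 3 groups did not overlap. It fell by 2.94 in ACTB-WT against Actin KO (log2, SE 0.37, edgeR adjusted p = 4.94e-04) and rose by 2.03 in ACTB-mut against ACTB-WT (SE 0.36, edgeR adjusted p = 0.0110). The rise was lost in limma-voom (adjusted p = 0.0969), with the compared groups alone (adjusted p = 0.0728) and without ACTB-WT replicate 2 (adjusted p = 0.0593).

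GCLM, the modifier subunit of the enzyme that starts glutathione synthesis, was at 50.9, 49.4 and 45.3 CPM (Actin KO), 30.4, 37.5 and 36.3 (ACTB-WT) and 104, 54.8 and 76.1 (ACTB-mut). The groups did not overlap. It rose by 1.17 in ACTB-mut against ACTB-WT (log2, SE 0.23, edgeR adjusted p = 0.0217). That call was lost in 4 of 10 alternative settings and in 5 of 6 leave-out fits (the exception was the fit without ACTB-mut replicate 2), with an adjusted p of up to 0.147.

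FTL, the ferritin light chain, was the 1 listed gene that edgeR called in ACTB-mut against Actin KO. The DESeq2 Wald test called 3 NRF2 targets, 2 glutathione genes and 1 thioredoxin-fold gene there, and limma-voom called 2 NRF2 targets and 1 glutathione gene. Its levels were 3778, 2986 and 3719 CPM (Actin KO), 4811, 4865 and 4721 (ACTB-WT) and 6874, 4331 and 6876 (ACTB-mut). ACTB-mut overlapped ACTB-WT and lay above Actin KO. It rose by 0.79 against Actin KO (log2, SE 0.14, edgeR adjusted p = 0.0150), a call lost with the compared groups alone and in 4 of 6 fits that left out a library (lacking replicate 2 or 3 of Actin KO, or replicate 1 or 3 of ACTB-mut), with an adjusted p of up to 0.0901.

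**Figure D4:**
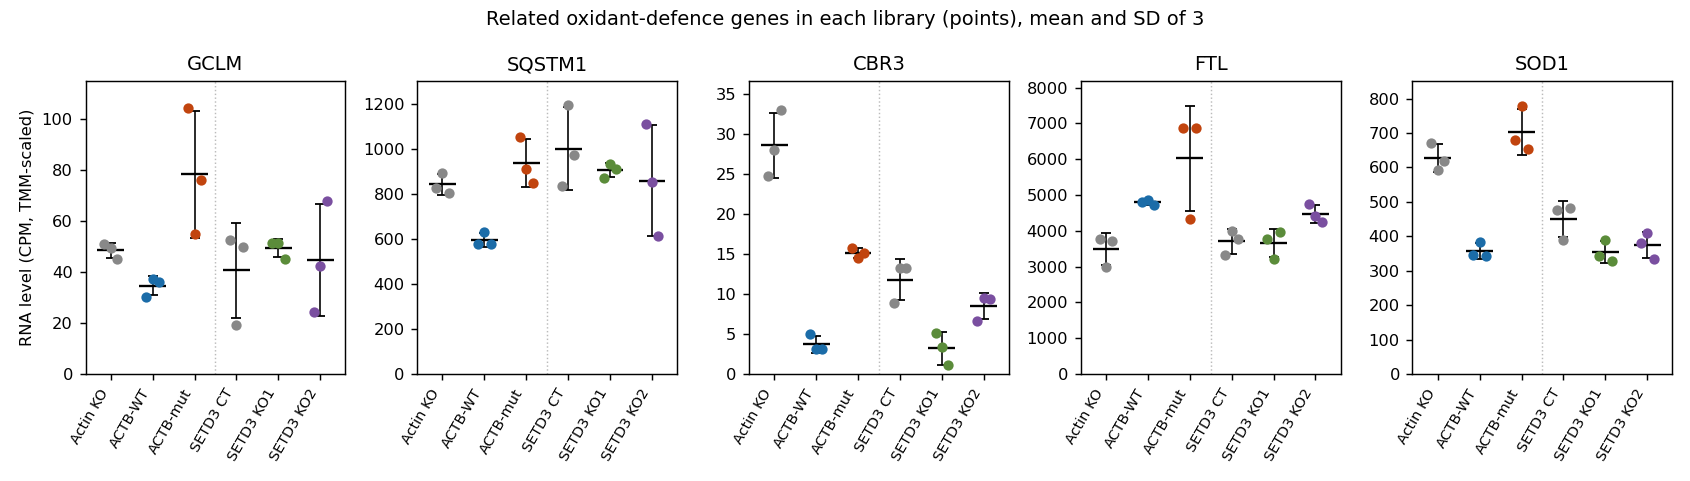
RNA level (CPM, TMM-scaled, y axis from 0) of 5 related genes in the 6 groups (x axis). Points are the 3 libraries of a group, the horizontal line their mean and the error bar their SD. GCLM, SQSTM1, CBR3 and SOD1 have their lowest libraries of the ACTB table in ACTB-WT, to the left of the dotted line.

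NRF2, KEAP1, GPX4, HMOX1 and SLC7A11 were not called in the ACTB table. NFE2L2, which encodes NRF2, averaged 16.5 ± 9.37 CPM (Actin KO), 13.8 ± 6.86 (ACTB-WT) and 22.02 ± 1.76 (ACTB-mut). KEAP1 averaged 109.5 ± 2.53, 142 ± 6.84 and 142 ± 11.0 CPM, with a log2 value of 0.01 for ACTB-mut against ACTB-WT. GPX4, the lipid peroxide reductase, averaged 1197 ± 29.4, 1350 ± 122 and 1350 ± 7.34 CPM. HMOX1, the haem oxygenase, was between 11.3 and 30.4 CPM and SLC7A11, the cystine transporter, between 0.737 and 9.80 CPM in the ACTB table.

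The mitochondrial counterparts of TXN and TXNRD1, TXN2 and TXNRD2, were not called. TXN2 averaged 198 ± 26.0, 239 ± 68.4 and 237 ± 16.2 CPM (Actin KO, ACTB-WT, ACTB-mut). TXNRD2 averaged 21.2 ± 9.23, 29.7 ± 0.661 and 16.9 ± 6.24 CPM, and its ACTB-mut libraries were all below ACTB-WT (log2 -0.82, edgeR adjusted p = 0.364). TXNIP, the thioredoxin-binding inhibitor, was listed at 0 in all 18 libraries and was not tested. A floor of 3 counts corresponds to 0.257 to 0.885 CPM in these libraries.

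In the SETD3 table no gene of the 5 lists was called in edgeR, DESeq2 or limma-voom in any of the 4 comparisons. SOD1 averaged 449 ± 52.7 CPM (SETD3 CT), 353 ± 32.02 (KO1) and 375 ± 37.3 (KO2). CBR3 averaged 11.8 ± 2.57, 3.22 ± 2.07 and 8.53 ± 1.60 CPM, with all KO1 libraries below SETD3 CT (log2 -1.87, edgeR adjusted p = 0.746). SQSTM1 and GCLM overlapped in every comparison. At an unadjusted p below 0.05 in edgeR a list held at most 3 genes, 3 of 21 NRF2 targets in KO2 against KO1, where 4.84% of all genes were at that p. The reference genes overlapped in most comparisons. NFE2L2 averaged 18.5 ± 10.8, 21.1 ± 9.66 and 17.4 ± 3.26 CPM in control, KO1 and KO2 libraries, and KEAP1 139 ± 36.7, 115 ± 15.8 and 100.3 ± 21.4. TXNRD2 was higher in every KO1 library than in SETD3 CT (24.4 ± 4.64 against 14.1 ± 3.90 CPM, log2 0.79, edgeR adjusted p = 0.948). TXN2 averaged 236 ± 63.1, 246 ± 60.8 and 239.9 ± 62.9 CPM, and GPX4 1059 ± 156, 1170 ± 155 and 1026 ± 104. HMOX1 averaged 19.8, 25.0 and 25.8 CPM, and SLC7A11 averaged at most 1.74 CPM.

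The genes whose pattern was most like that of PRDX1 were not members. Likeness was the root mean square difference of log2(CPM + 1), centred on its mean over the 9 libraries of a table, among genes with a mean of at least 32 CPM. PRDX1's own root mean square deviation was 0.713 in the ACTB table. The nearest of 3830 genes there were MT-CYB (0.217), EEF1A1 (0.294), MT-CO1 (0.311), MT-ND5 (0.338) and ZFAS1 (0.346). MT-CYB was at 50.9, 57.6 and 48.2 CPM (Actin KO), 56.9, 42.9 and 55.6 (ACTB-WT) and 113, 108 and 195 (ACTB-mut). Of the members, PRDX3 ranked 12, TXNRD1 26, NQO1 38, SRXN1 106 and TXN 304, and PRDX2 ranked 3350. All these values come from the same 9 libraries and share their depth and base composition.

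In the SETD3 table the nearest of 3900 genes were EEF1A1 (0.327), PSMC2 (0.416), PPIA (0.428), ADSL (0.438) and BRK1 (0.445), where PRDX1's own deviation was 0.818. EEF1A1, a translation elongation factor, was thus among the nearest 2 in both tables. It was at 3126, 1498 and 1512 CPM (SETD3 CT), 1078, 1120 and 1034 (KO1) and 1557, 2354 and 3904 (KO2). Like PRDX1, it was high in SETD3 CT replicate 1 and in KO2 replicate 3. EEF1A1 has many near-identical copies in the genome, so its counts are uncertain. The other members were farther off, with PRDX3 at rank 90, TXNRD1 at 161 and NQO1 at 2855.

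**Figure D5:**
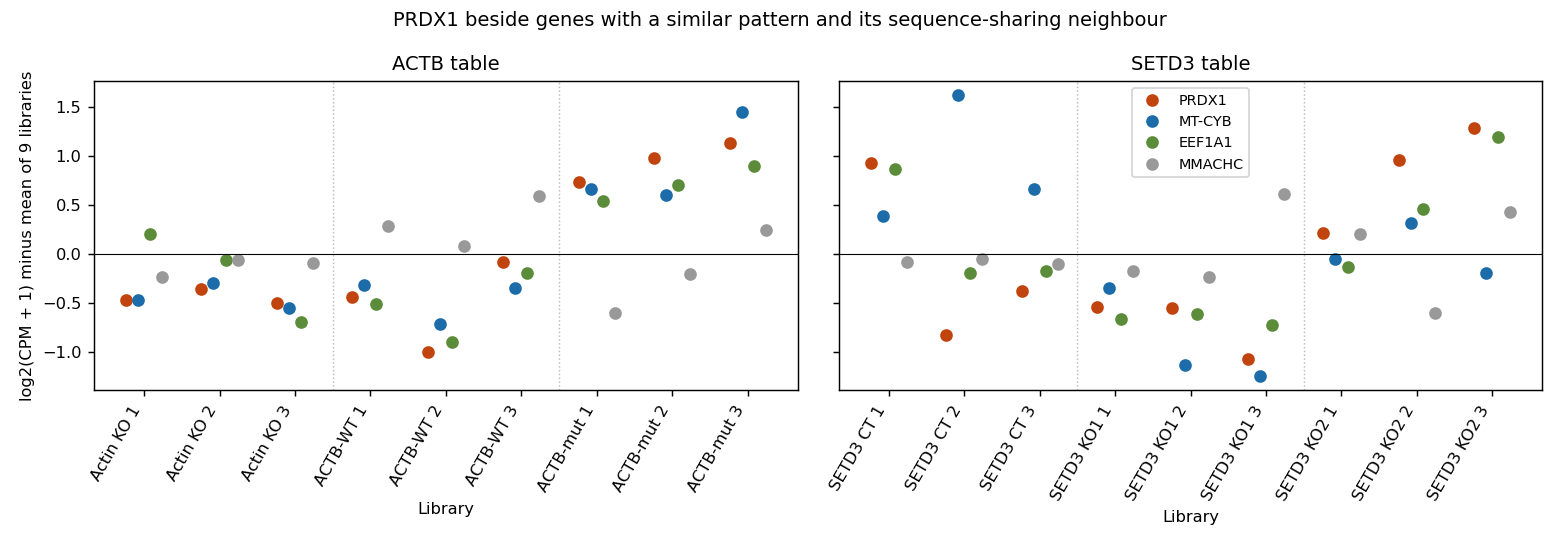
Log2(CPM + 1) minus its mean over the 9 libraries of a table (y axis) for PRDX1, MT-CYB, EEF1A1 and MMACHC in each library (x axis, replicate numbers after the group). In the ACTB table PRDX1, MT-CYB and EEF1A1 are highest in the 3 ACTB-mut libraries. In the SETD3 table MT-CYB is highest in SETD3 CT replicate 2, where PRDX1 is low.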

How the data were processed

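The 2 gene tables, 1 for the ACTB groups and 1 for the SETD3 groups, held 60683 rows for 9 libraries each. The deposited values are RSEM expected counts, with 83.41% and 83.79% of values whole. Per the submitters' processing notes, the authors used Trim Galore 0.4.5, cutadapt 1.15, Bowtie2 and RSEM 1.2.28 with GRCh38. The annotation release and strand setting are not given in the sources used here. Reads that fit several genes are divided by RSEM among them, and values of PRDX1, PRDX2, PRDX3, TXN, SRXN1 and NQO1 were not all whole. Processed copies of members held at most 0.708% of a member's count in a library.

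Expected counts were rounded, filtered with filterByExpr, scaled by TMM and tested in R 4.3.3 with edgeR 4.0.16 (robust quasi-likelihood F test over the 3 groups of a table, Benjamini-Hochberg adjustment over all genes tested, threshold 0.05). The SE is |log2 fold change| over the root of F, and intervals are 95%. Alternatives used limma-voom (limma 3.58.1), DESeq2 1.42.0 and offsets over GC content and length (mgcv 1.9.3). The fits were tested on simulated data. Lengths, GC content and coordinates are from GENCODE 29. Members and lists were chosen with earlier results of these data known. All members are described. Of the lists, called genes and a fixed set of reference genes (TXNIP, TXN2, TXNRD2, NFE2L2, KEAP1, GCLM, HMOX1, SLC7A11, GPX4, SOD1) are named, with 1 further reference gene not reported here, and for likeness to PRDX1 the nearest 5 genes of each table. Replicates of a group differed beyond counting noise, so none was treated as a repeat deposit of another library. This does not show that they are separate cultures.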

Additional observations from a re-analysis of the deposited data

Results flagged for a closer look

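The effect of ACTB-mut against ACTB-WT differed from the average SETD3 knockout effect for 2 genes of the related lists, by the test of the difference itself. CBR3, the carbonyl reductase, had a difference of 3.16 on the log2 scale (SE 0.62, edgeR adjusted p = 0.0219). Its effect was 2.03 in ACTB-mut against ACTB-WT. The average knockout effect was -1.16 and not called (edgeR adjusted p = 0.876), from -1.87 in KO1 and -0.46 in KO2. Against Actin KO, the log2 value of CBR3 in ACTB-mut was -0.92 (edgeR adjusted p = 0.266). Its counts were low in ACTB-WT, at 17.8 to 24.8 per library, and the call was lost with the replicate block (adjusted p = 0.122) and in 5 of 15 fits that left out a library (ACTB-WT replicate 2 or 3, ACTB-mut replicate 1 or 3, or SETD3 CT replicate 3), with an adjusted p of up to 0.104. SOD1, the cytosolic superoxide dismutase, had effects of 0.98 and -0.30, the latter not called (edgeR adjusted p = 0.886). The difference was 1.26 (SE 0.18, edgeR adjusted p = 0.00110). This call was kept in 15 of 15 fits that left out a library and lost with GC and length offsets, where the difference was 0.89 (adjusted p = 0.186). Against Actin KO, the log2 value of SOD1 in ACTB-mut was 0.16 (edgeR adjusted p = 0.652).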

How the results depend on the processing

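No member's call reversed under any alternative run. Over 80 member values and their 1380 alternatives, 1345 stayed on the same side of the threshold, 27 calls were lost and 8 gained. Only 3 member values in ACTB-mut against Actin KO and 4 in ACTB-mut against ACTB-WT were called in the main fit. Most of the 1345 were thus uncalled values that stayed uncalled. The sign changed in 84 alternatives of uncalled values, spread over 36 of the 80. For listed genes 32 of 1786 were lost and 6 gained, with 0 reversed. Counts of called genes moved more. ACTB-WT against Actin KO called 155 genes, with 358 in the DESeq2 Wald test, 89 in limma-voom, 320 without the low count filter and 79 to 106 with a library left out. ACTB-mut against Actin KO called 128, with 395 in DESeq2, 371 without the filter and 34 to 77 with a library left out. ACTB-mut against ACTB-WT called 172, with 446 in DESeq2, 402 without the filter, 104 with the compared groups alone and 60 to 129 with a library left out. KO1 against SETD3 CT called 2, with 72 in DESeq2, 58 without the filter, 4 with a stricter filter, 13 with GC and length offsets, 1 with the groups alone and 0 to 4 with a library left out. KO2 against SETD3 CT called 8, with 90, 68, 21 with the offsets, 1 with the groups alone and 3 to 7 with a library left out. KO2 against KO1 called 4, with 56, 9 in limma-voom, 58 and 17. The average of both lines called 6, with 91, 85, 20 and 0 to 7 with a library left out. The difference of effects called 49, with 195 in DESeq2, 205 without the filter and 23 to 77 with a library left out. The cause of these shifts was not tested. With the replicate block the counts, in the order above, were 89, 85, 83, 0, 1, 3, 0 and 17, and among named genes it lost NQO1 in ACTB-mut against either group (adjusted p = 0.0608 and 0.111) and SQSTM1 in ACTB-WT against Actin KO (adjusted p = 0.0820), beside GCLM in ACTB-mut against ACTB-WT and CBR3 in the difference of effects. Same-numbered libraries share only a number: their deviations correlated at -0.157 to 0.125 among actin libraries and at -0.565 to 0.245 among SETD3 libraries. The fit with rows that share sequence added was chosen after seeing the data. Low counts limit CBR3 and SLC7A11. TXNIP was listed at 0 in every library, and whether its RNA was absent or its reads were not assigned was not tested.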
